A study of Mus musculus with 2 samples.

Results

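The miR-130/miR-301 family was followed in 2 small-RNA libraries made from the hippocampus of female mice, strain B6CASTF1/J and 18 to 20 months old. Its members were the 4 genes Mir130a, Mir130b, Mir301 and Mir301b, of 2202 miRNA genes in the files, found by the gene name that the GENCODE M21 annotation gives to each gene ID. The family was selected on the sense-strand CPM of Mir301, which differed strongly between the libraries, so every ratio between the libraries below is a description and carries no test. These animals are F1 hybrids of the laboratory strain B6 and the wild-derived strain CAST. Both libraries belonged to 1 group, labelled biological replicates 2 and 1, and no treatment, age or sex was contrasted. The tissue records carry different animal numbers but the same donor record, so whether the libraries came from separate animals is not certain and their spread may be partly technical. The label calls the tissue a layer of hippocampus without naming the layer.

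MicroRNAs are short RNAs cut from hairpin precursors. A microRNA finds messenger RNAs mainly through its seed, bases 2 to 8 from the 5′ end, and lowers their translation and stability. MicroRNAs with the same seed can share targets, and those of the miR-130/miR-301 family are known for repressing Pparg, a regulator of fat cell differentiation and inflammation. miR-130a is also known from endothelial cells and the growth of blood vessels.

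Sequences of 3p arms of the family are shown because they carry the shared seed, which stands in capitals (RefSeq, GRCm38.p6).
miR-130a-3p: cAGUGCAAuguuaaaagggcau
miR-130b-3p: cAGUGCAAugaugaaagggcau
miR-301a-3p: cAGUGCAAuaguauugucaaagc
The mature miR-301a comes from the gene Mir301, and the 3p arm of Mir301b is named miR-301b-3p. RefSeq entries matched the hairpins of all 4 genes and the 3p arms of 3 of them, which are the 3 shown. miR-130a-3p and miR-130b-3p had 20 of 22 bases in common and differed by U11A and A13G (miR-130a-3p's base first, counted from the 5′ end). miR-301a-3p had the first 9 bases in common with miR-130a-3p and 12 of the 22 bases compared, so behind the seed it is the more distant sequence.

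The 5p arms split the family another way, with the seed again in capitals.
miR-130a-5p: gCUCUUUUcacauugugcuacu
miR-130b-5p: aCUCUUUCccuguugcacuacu
miR-301a-5p: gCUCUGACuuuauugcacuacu
miR-301b-5p: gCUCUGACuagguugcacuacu
miR-301a-5p and miR-301b-5p had 1 seed in common and 19 of 22 bases, with U10A, U11G and A12G between them (miR-301a-5p's base first). miR-130a-5p and miR-130b-5p differed within the seed. The deposited counts belong to whole hairpins, so a count of Mir301 can come from either arm and the arms were not told apart.

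The genes lie at 3 places in the mm10 genome, and 3 of the 4 are inside introns of protein-coding genes. Mir130a (ENSMUSG00000065484.1) lies on the minus strand of chromosome 2, 84741115 to 84741178, in no other annotated gene, with Gm19426 at a distance of 991 bases. Mir301 (ENSMUSG00000065589.1) lies on the plus strand of chromosome 11, 87113004 to 87113089, in the first intron of Ska2, which encodes a spindle and kinetochore protein of dividing cells. Mir130b (ENSMUSG00000065572.1) lies on the minus strand of chromosome 16, 17124061 to 17124142. Mir301b (ENSMUSG00000076288.1) lies beside it, 17124400 to 17124496, with 258 bases between the hairpins. Both are in the first intron of 2610318N02Rik and on its strand. No other annotated miRNA gene lies within 50 kb of any member.

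Sense-strand counts over all miRNA genes summed to 4521208 in replicate 2 and 2255838 in replicate 1, and levels are given as CPM, counts per 1000000 of these. Intervals are exact 95% Poisson intervals, which cover counting error only and leave out variation between libraries. Reads copied by PCR are not independent molecules, so the intervals can be too narrow even for counting error. The tissue label was checked by microRNAs of known cell types: the 10 neuronal genes summed to 83984 CPM in replicate 2 and 107344 CPM in replicate 1, led by Mir127. These genes went both ways. Mir132 had 18329 CPM in replicate 2 against 38949 CPM in replicate 1, and Mir127, Mir138-1 and Mir138-2 were also lower in replicate 2. Mir128-1, Mir128-2 and Mir137 were higher there. The 3 copies of Mir124a in that list were each at or under 2.88 CPM, and Mir124a-2 had 0 counts in replicate 2. Reads that fit several of these copies would be set apart as multimapping, so these counts do not give the level of miR-124. The 3 oligodendrocyte markers summed to 5395 CPM in replicate 2 and 6829 CPM in replicate 1. The 3 erythroid markers summed to 136 CPM in replicate 2 and 138 CPM in replicate 1, with log2 ratios of 1.48 for Mir144, -0.57 for Mir451a and -0.01 for Mir486. The liver microRNA Mir122 had 43.1 CPM in replicate 2 and 14.6 CPM in replicate 1, a ratio of 2.95, and the 3 muscle genes summed to 27.2 CPM in replicate 2 and 17.3 CPM in replicate 1. The libraries also differed apart from the family. In replicate 2, 11.2% of reads were unmapped and 47.9% were multimapping, against 29.0% and 36.2% in replicate 1. The sum over 7 choroid plexus and ependyma markers was 1435 CPM in replicate 2 against 3124 CPM in replicate 1. Mir34c had the largest difference, 366 CPM in replicate 2 against 1597 CPM in replicate 1. Mir449a and Mir200b were slightly higher in replicate 2, with log2 ratios of 0.20 and 0.12, and the other markers of that list were lower. The endothelial Mir126a had 29026 CPM in replicate 2 against 21890 CPM in replicate 1. The 4 leukocyte and microglia markers summed to 1682 CPM in replicate 2 against 1694 CPM in replicate 1. None of the 12 choroid plexus, endothelial and leukocyte markers was at 0. The part of mapping or of any of these markers' cell types in the ratios below was not tested, and in bulk tissue fewer cells of a type and less RNA per cell cannot be told apart.

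Mir130a was the most abundant member and held nearly the same level in both libraries. It had 5819 counts in replicate 2, which is 1287 CPM (1254 to 1321), and 3137 in replicate 1, which is 1391 CPM (1342 to 1440). It ranked 82 of all 2202 genes in replicate 2 and 87 in replicate 1. Its mean was 1339 ± 73.2 CPM (SD, n = 2). The CPM ratio, replicate 2 over replicate 1, was 0.926 (0.886 to 0.967, exact conditional binomial interval). On the log2 scale that was -0.11, against a median of -0.19 over the 495 genes that averaged at least 1 CPM. The sign turns with the scaling: relative to that median Mir130a stood at 0.077, and it was at 0.0097 with TMM factors and 0.080 with DESeq2 size factors.

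Mir301 was the member whose level differed between the libraries, and it had been chosen for that. It had 2781 counts in replicate 2, which is 615 CPM (592 to 638), and 112 in replicate 1, which is 49.6 CPM (40.9 to 59.7). Its mean of 332 ± 399.8 CPM (SD, n = 2) therefore describes neither library. It ranked 112 among all genes in replicate 2 and 234 in replicate 1. The CPM ratio was 12.4 (10.3 to 15.1), a log2 ratio of 3.62, or 3.81 above the median of the genes compared.

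Mir130b, which has nearly the same 3p arm as Mir130a, was about 20 times lower than it and also close in both libraries. It had 283 counts in replicate 2, which is 62.6 CPM (55.5 to 70.3), and 155 in replicate 1, which is 68.7 CPM (58.3 to 80.4), and the intervals overlap. Its rank was 221 in replicate 2 and 220 in replicate 1, and its mean was 65.7 ± 4.32 CPM (SD, n = 2). The CPM ratio was 0.911 (0.746 to 1.12), a log2 ratio of -0.14 that stood 0.05 above the median.

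Mir301b, the neighbour of Mir130b, was close to the limit of detection. It had 8 counts in each library, which is 1.77 CPM (0.764 to 3.49) in replicate 2 and 3.55 CPM (1.53 to 6.99) in replicate 1. A count of 0 would have allowed up to 0.664 CPM in replicate 2 and 1.33 CPM in replicate 1. The CPM ratio of 0.499 had an interval of 0.163 to 1.53, which includes 1. Whether Mir301b differed within that range was left undecided at this depth. Its mean was 2.66 ± 1.26 CPM (SD, n = 2).

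**Figure D1:**
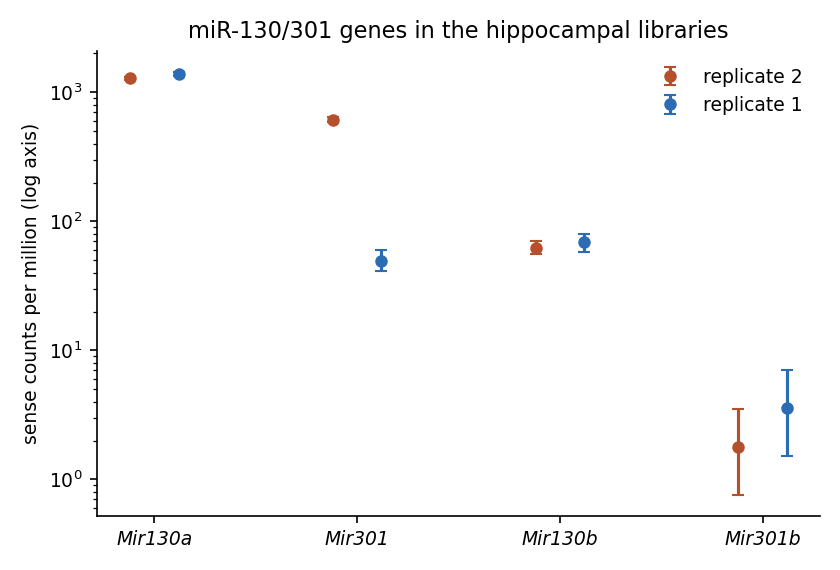
Level of each miR-130/miR-301 gene (sense-strand CPM, log axis) in replicate 2 and replicate 1, with exact 95% Poisson intervals. Mir301 stands at 615 CPM in replicate 2, against 49.6 CPM in replicate 1, whereas the points of Mir130a and of Mir130b lie close together. The intervals of Mir301b overlap.

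The order of the members was not the same in both libraries. In mean CPM it ran Mir130a, Mir301, Mir130b and Mir301b. Mir130a was above Mir301 in both, by 2.09 times in counts (2.00 to 2.19) in replicate 2 and 28.0 times (23.2 to 34.1) in replicate 1. Mir301 had 9.83 times the counts of Mir130b (8.69 to 11.1) in replicate 2 but 0.723 times (0.562 to 0.927) in replicate 1, so this middle pair changed places and did not differ beyond the spread between libraries. Mir301b was lowest in both.

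Ratios between members need no scaling, and the ratio of Mir130a to Mir130b was almost constant. It was 20.6 (18.2 to 23.2) in replicate 2 and 20.2 (17.2 to 23.9) in replicate 1. The log2 ratios of Mir130a and Mir130b both stood close to the median of the genes compared, 0.077 and 0.052 above it. A link between them was not tested. The ratio of Mir301 to Mir301b was 348 (176 to 806) in replicate 2 and 14.0 (6.87 to 33.2) in replicate 1. Mir130b had 35.4 times the counts of Mir301b (17.7 to 82.7) in replicate 2 and 19.4 times (9.59 to 45.7) in replicate 1, intervals that overlap.

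The makeup of the family differed between the libraries, mainly through Mir301. Mir130a held 65.5% of the family's counts (64.4 to 66.4, exact binomial interval) in replicate 2 and 91.9% (91.0 to 92.8) in replicate 1. Mir301 held 31.3% (30.3 to 32.3) in replicate 2 and 3.28% (2.71 to 3.94) in replicate 1. Mir130b held 3.18% (2.83 to 3.57) in replicate 2 and 4.54% (3.87 to 5.30) in replicate 1. Mir301b held 0.0900% (0.0389 to 0.177) in replicate 2 and 0.234% (0.101 to 0.461) in replicate 1.

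**Figure D2:**
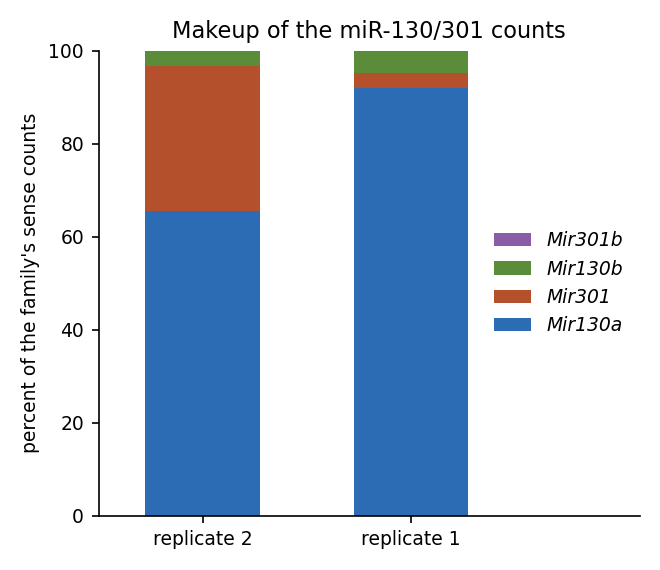
Percent of the family's summed sense counts held by each gene in replicate 2 and replicate 1 (stacked bars). The part of Mir301 is 31.3% in replicate 2 and 3.28% in replicate 1, and Mir301b is too small to see.

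Summed over its 4 genes the family was a small part of the microRNA pool. It took 8891 counts in replicate 2, or 1967 CPM and 0.197% of all counts, and 3412 counts in replicate 1, or 1513 CPM and 0.151%. The ratio of the sums was 1.30 (1.25 to 1.35). Mir301 alone was 565 CPM higher in replicate 2, more than the 454 CPM of the whole family. Without Mir301 the family summed to 1351 CPM in replicate 2 and 1463 CPM in replicate 1, a ratio of 0.924 (0.885 to 0.964) and a log2 ratio of -0.11.

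Against all genes, Mir301 had the highest log2 ratio of the 495 compared, but it ranked 8 by size in either direction. It was the 1 gene that was 8-fold or more higher in replicate 2, and 11 genes were 8-fold or more lower. Those lower included Mir26a-1 at -5.56 and Mir1247 at -4.59, both named after their values were seen. Mir26a-2, a copy of the same microRNA, was at -0.56. Reads that fit both copies are not in the gene counts. The other genes ranked above Mir301 by size averaged under 10 CPM and had at most 11 counts in a library, so their ratios rest on few reads. Of the 495 genes, 38 (7.68%) were 2-fold or more higher in replicate 2 and 90 (18.2%) were 2-fold or more lower. In either direction 128 (25.9%) passed 2-fold. DESeq2 size factors gave 46 higher against 68 lower among 498 genes. Scaling to all reads gave 35 against 32 among 394 genes, since it also lowers the levels that the 1 CPM minimum is set on. Of the 4 members, 1 was 2-fold or more higher, Mir301, for which the family was chosen, and 1 was lower, Mir301b, whose 8 counts in each library put it on the 2-fold border. With unstranded counts and under each of the 3 other scalings Mir301b was less than 2-fold lower. In the order of ratios Mir130a ranked 226 and Mir130b ranked 235 from the top, near the middle.

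**Figure D3:**
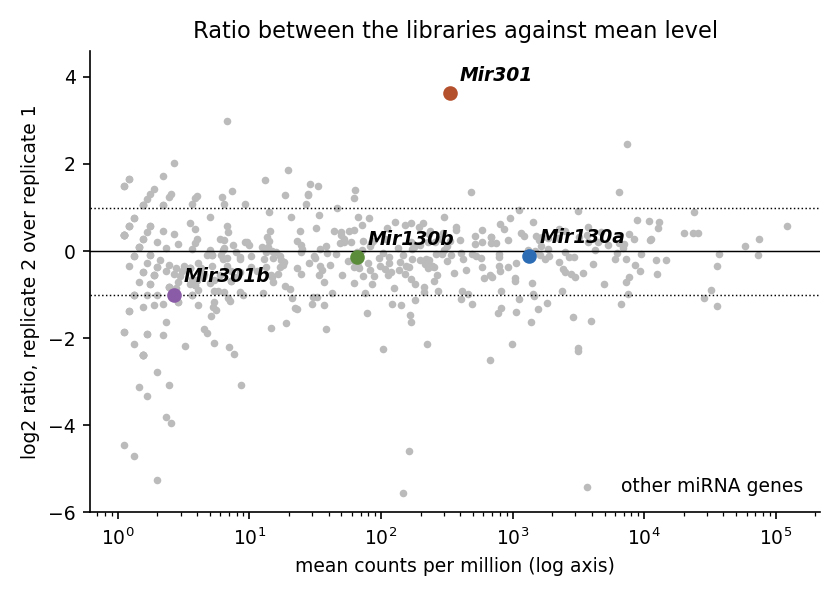
Log2 ratio of CPM, replicate 2 over replicate 1, against mean CPM (log axis) for the 495 genes that averaged at least 1 CPM. Dotted lines mark 2-fold. Mir301 lies above all other genes at 3.62, Mir130a and Mir130b lie near 0, and Mir301b lies on the lower dotted line.

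Among the 310 genes that averaged at least 10 CPM, none had a ratio above that of Mir301, and the nearest was 1.17 log2 units below it. That was Mir195a, a microRNA that restrains cell cycle genes, with 12419 CPM in replicate 2 against 2268 CPM in replicate 1. Mir193a had 31.2 CPM in replicate 2 against 8.42 CPM in replicate 1. Mir9-1, a copy of a neural microRNA, had 19.9 CPM in replicate 2 against 6.21 CPM in replicate 1. Reads that fit several copies of that microRNA are not in these counts. The likeness is over 2 libraries only and says no more than that these genes were higher in the same library. Nearest in log2 ratio to the family without Mir301 were Mir300, Mir503 and Mir1188. Mir300 had 502.7 CPM in replicate 2 against 544 CPM in replicate 1, Mir503 had 9.95 CPM in replicate 2 against 10.6 CPM in replicate 1, and Mir1188 had 29.9 CPM in replicate 2 against 32.4 CPM in replicate 1.

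The expressed miRNA genes nearest to Mir301 were lower in replicate 2, where Mir301 was higher. Within 1 Mb, 2 other miRNA genes averaged at least 10 CPM. Mir21a, a microRNA raised in inflammation and gliosis and 528846 bases away, had 1945 CPM in replicate 2, against 5880 CPM in replicate 1, a log2 ratio of -1.60. Mir142, a microRNA of blood cells and 643775 bases away, had 116 CPM in replicate 2, against 157 CPM in replicate 1, a log2 ratio of -0.44. These 2 genes were looked up after the value of Mir301 was known.

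Mir130b and Mir301b are the family's only neighbours, and their levels differed 24.7-fold in mean CPM although 1 intron holds both. Mir301b is below the 10 CPM set for such pairs, so pairs were also taken at 1 CPM or more, which was decided after the data were seen. Of 412 pairs of miRNA genes within 10 kb on 1 strand, which share members, 124 differed in level at least as much. The 124 include Mir130b with Mir301b. Most of the 412 pairs lie in the stretch of chromosome 12 from Mir770 to Mir3072. The log2 ratios of Mir130b and Mir301b differed by 0.87, and the median over these pairs was 0.71. Over the 341 pairs at 10 CPM or more it was 0.65.

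Other microRNAs with the same seed were not detected. Besides the members, 4 genes in the RefSeq table have bases 2 to 8 equal to the family's, and their sequences show the seed in another context.
miR-130c: cAGUGCAAuguuccaaggugug
miR-721: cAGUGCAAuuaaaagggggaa
miR-6341: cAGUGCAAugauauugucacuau
miR-6389: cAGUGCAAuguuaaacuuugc
Mir130c, Mir721, Mir6341 and Mir6389 had 0 counts in both libraries, which allows up to 0.664 CPM in replicate 2 and 1.33 CPM in replicate 1.

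The miR-148/miR-152 and miR-19 families have seeds shifted by a base against that of miR-130/miR-301, so that 6 bases overlap. The seed of miR-148/miR-152, known for repressing Dnmt1, a DNA methyltransferase, starts a base earlier, and that of miR-19, of the growth-promoting miR-17-92 cluster, a base later.
miR-148a-3p: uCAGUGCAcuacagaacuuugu
miR-152-3p: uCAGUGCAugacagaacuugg
miR-19a-3p: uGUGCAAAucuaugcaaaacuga
Mir148a had 72.3 CPM in replicate 2, against 51.4 CPM in replicate 1, a ratio of 1.41 (1.13 to 1.75). Mir148b had 102.6 CPM in replicate 2, against 60.3 CPM in replicate 1, a ratio of 1.70 (1.40 to 2.08). Mir152 had 87.4 CPM in replicate 2, against 37.2 CPM in replicate 1, a ratio of 2.35 (1.85 to 3.01). Summed, the miR-148/miR-152 genes had 262 CPM in replicate 2 and 149 CPM in replicate 1, less than the miR-130/miR-301 sums. Mir19a and Mir19b-1 had 1 and 7 counts in replicate 2 and 2 and 0 counts in replicate 1, and Mir19b-2 had 0 in both, so no ratio is given for them. Mir19b-1 and Mir19b-2 have 1 mature 3p sequence in common and can lose reads to multimapping.

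**Figure D4:**
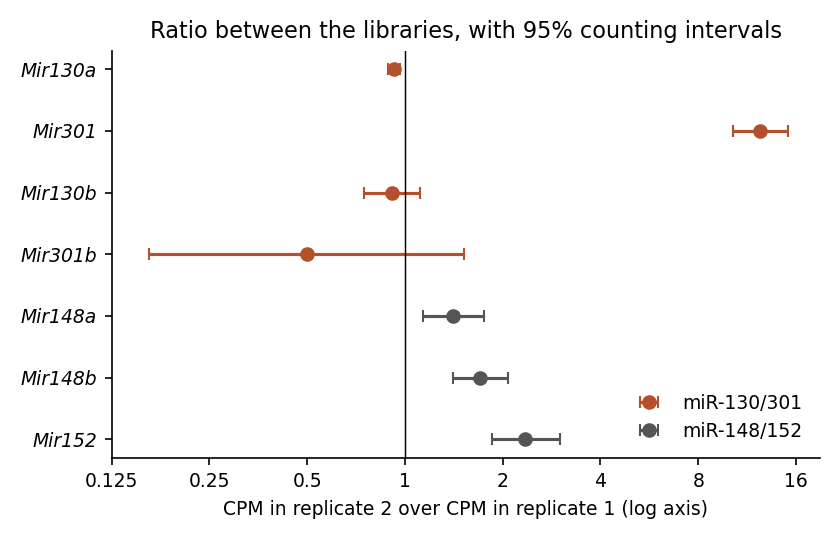
Ratio of CPM, replicate 2 over replicate 1 (log axis), of each miR-130/miR-301 and miR-148/miR-152 gene, with 95% exact conditional binomial intervals for counting error. Mir301 stands at 12.4, the miR-148/miR-152 genes between 1.41 and 2.35, Mir130a and Mir130b just under 1, and the interval of Mir301b spans 1.

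The family's sequences bear on how its reads are counted. The deposited files set multimapping reads apart from the gene counts. The longest stretch any member had in common with another annotated hairpin was 17 bases for Mir130a (with Mir6389) and 16 bases for Mir130b, Mir301 and Mir301b. No member shared a stretch of 20 bases, whereas 1084 of the 2202 hairpins did. Matches elsewhere in the genome were not searched. The 16 bases of Mir301 are in Mir301b, so a read of that stretch alone would fit both. Almost no reads fell on the opposite strand: Mir130a had 3 antisense counts in replicate 2 and 1 in replicate 1, and the other members had 0.

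Base composition of the hairpins is given here beside the ratios. That of Mir301 had 48.8% G and C, against 45.3% in Mir130a, 56.1% in Mir130b and 53.6% in Mir301b, and a median of 50.5% over the 310 genes at 10 CPM or more. Across those genes, which share both libraries, GC content and log2 ratio had a Pearson's r of -0.15 and a Spearman's rho of -0.11. The miR-301a-3p arm had 39.1% G and C, the miR-130a-3p arm 40.9% and the miR-130b-3p arm 45.5%.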

How the data were processed

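Small-RNA libraries with a size limit of 30 nt were made from total RNA, per the labels' protocols. Each library has a deposited file of unnormalized counts for every miRNA gene (unstranded, sense and antisense columns), below 4 rows of totals. They were made on mm10 with GENCODE M21, per the file headers of the deposited README files. The aligner and counter, not given in the sources used here, are unknown. Genes were named from GENCODE M21, and mature sequences were taken from RefSeq (GRCm38.p6).

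Sense counts were scaled to CPM on the sum over genes, without the rows of totals, which hold 62.8% of the reads of replicate 2 and 69.8% of those of replicate 1. Log2 ratios (replicate 2 over replicate 1) used a pseudocount of 0.5 counts. Genes averaging at least 1 CPM were compared, and 2-fold was the threshold. With 1 library on each side, and members chosen by this ratio, no test was made. TMM factors came from edgeR 4.0.16 and size factors from DESeq2 1.42.0. The computation ran in Python 3.11.15 and scipy 1.17.1, and the ratio step was tested on simulated data. Named genes were the members, genes with the same or a shifted seed, neighbours within 10 kb, genes nearest in log2 ratio, and tissue markers. Mir21a, Mir142, Mir26a-1, Mir26a-2, Mir1247 and the genes of chromosome 11 in the closing section were named after their values were seen. The members and lists were chosen with earlier results of these data known. Alternatives were unstranded counts, 3 scalings, another pseudocount, other filters and leaving out a replicate.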

Additional observations from a re-analysis of the deposited data

How the results depend on the processing

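Leaving aside the values without a replicate, 46 of 67 alternative values stayed within a set margin of the reported one and 21 did not. The margin was the SD for means and shares, the counting interval for log2 ratios and a set fold for numbers of genes. For neighbour pairs it was the SD over pairs. The SD of Mir301 exceeds its mean, so that margin says little. The log2 ratio of Mir301 stayed above 2-fold in each. That of Mir301b, just past 2-fold lower in the report, fell short of it with unstranded counts (-0.98), TMM factors (-0.88), DESeq2 size factors (-0.81), scaling to all reads (-0.70) and relative to the median gene (-0.81). With unstranded counts the mean of Mir130a was 1465 CPM and that of Mir130b 71.8 CPM. With scaling to all reads the means were 449 for Mir130a, 22.0 for Mir130b, 122 for Mir301 (within its wide SD), 0.864 for Mir301b and 594 for the summed family, because that total is larger. It also put the log2 ratios at 0.19 for Mir130a, 0.17 for Mir130b, 3.93 for Mir301 and 0.68 for the summed family. For Mir130a the log2 ratio was 0.0097 with TMM factors, 0.080 with DESeq2 size factors and 0.077 relative to the median gene. For the summed family it was 0.50 with TMM factors, 0.57 with size factors and 0.57 relative to the median gene. TMM raised every log2 ratio by 0.12, size factors by 0.19 and scaling to all reads by 0.30. Genes 2-fold or more higher numbered 108 with no filter and 14 at 10 CPM or more; genes lower numbered 180 and 39, and 32 with scaling to all reads, where 394 genes were compared rather than 495. Leaving out a replicate leaves the other library's value, given above; the mean of Mir301 then lies between 49.6 and 615 CPM. Depth limits Mir301b, with 8 counts in each library. No paired analysis was possible because the series has 1 group.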

Other observations

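Chromosome 11, which holds Mir301, also held other genes that were higher in replicate 2. Of 22 genes there that averaged at least 10 CPM, 6 were 2-fold or more higher, against 14 (4.52%) of all 310 such genes. The 14 include these 6, and the 6 include Mir301, for which the family was chosen. Without Mir301, 5 of 21 genes there were 2-fold or more higher. Beside Mir301 these were Mir195a, Mir193a, Mir144, Mir10a and Mir152, with log2 ratios of 2.45, 1.86, 1.48, 1.29 and 1.22. No other chromosome held more than 1. In the other direction, 3 of the chromosome's genes were 2-fold or more lower, and the median over its 21 genes other than Mir301 was -0.07. The positions of the 6 genes run from 70235042 to 96850465. Between these positions lie Mir21a and Mir142, which were lower in replicate 2, with log2 ratios of -1.60 and -0.44. Within 10 kb of Mir144 lies Mir451a at -0.57, and within 10 kb of Mir195a lies Mir497 at 0.51. The grouping of higher genes on chromosome 11 was noticed after the values were seen and was not tested.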
